A study of Mus musculus with 6 samples.

Results

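Ovaries of wild-type BDF1 mice, an F1 hybrid laboratory strain, were compared after treatment with the compound MIT-001 or with phosphate-buffered saline (PBS). The comparison holds 4 of the 6 libraries of the study: 2 labelled as 65 weeks old and injected with MIT-001, and 2 labelled as 65 weeks old and injected with PBS. Per the labels, injections went into the abdomen at 0.5 mg/kg for 7 days. The study used 40 mice of that age and 20 mice of 8 weeks. The 2 libraries labelled as PBS-injected and 8 weeks old are given side by side only. All were taken by their labels. The labels do not say how many mice gave a library or whether animals were pooled, so every p-value measures the spread between these libraries, which may be technical. A single dose and a single course were used.

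MIT-001 is known as a scavenger of reactive oxygen species that acts in mitochondria. The ovary holds follicles, in which an oocyte is enclosed by granulosa cells that nurse it through gap junctions, with steroid-making theca cells outside. A simple epithelium covers the organ, and macrophages patrol the stroma between follicles. Number and activity of follicles decline with age, while immune cells are known to accumulate. The comparison addresses what MIT-001 changes in the old ovary.

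Messenger RNA was measured as TPM, the abundance of transcripts, a level scaled for gene length and library total. Of 45679 genes with a symbol, 16015 reached 1 TPM in at least 2 of the 4 libraries and were tested on the log2(TPM + 1) scale, on which fold changes of low genes are understated. Estimated depth was similar, at 6.34 to 7.14 gigabases of aligned sequence in each library. Replicates correlated across genes with r = 0.9595 for MIT-001 and 0.9742 for PBS, where genes are not independent replicates, and 7.54% and 4.61% of genes differed more than 2-fold between the replicates. The tissue label was met by genes of the ovary: the steroid enzyme gene Cyp11a1 stood between 11470 and 17240 TPM in the 4 libraries. The age labels were not met in the same way. The oocyte list had a mean log2(TPM + 1) of 4.66 and 4.68 in the libraries labelled old PBS, but 4.06 and 1.72 in those labelled young PBS. Groups are therefore named as labelled throughout, and no direction of ageing is drawn from them.

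In the libraries labelled old MIT-001, called genes included 12 of 16 tested genes of secretory epithelium, 7 of 12 of surface epithelium, 10 of 19 of the dissection and handling response, a list made up largely of immediate early genes, 4 of 9 of MHC class II presentation and 5 of 17 of complement, all of them higher. In the other direction, 19 of 24 oocyte genes, 6 of 17 granulosa cell genes and 5 of 28 mitotic and replication genes were lower, and 1 granulosa cell gene was higher. Limma called 442 of 16015 genes (2.76%) at a Benjamini-Hochberg adjusted p below 0.05, of which 254 rose (1.59%) and 188 fell (1.17%). After quantile normalization the share of calls that were higher was 46.3%, against 57.5% here. The smallest change called had an absolute log2 fold change of 0.77. All 442 genes had groups that did not overlap, but so did 26.8% of all genes in the higher and 24.6% in the lower direction, and 52.7% of all genes had a log2 fold change above 0 and 47.3% below. Before adjustment, 1871 genes (11.7%) passed a p of 0.05 upwards and 1348 (8.42%) downwards. Counts of list members at an unadjusted p, given below, are to be set beside these shares. Over all genes, log2 fold changes had a median of 0.03.

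**Figure D1:**
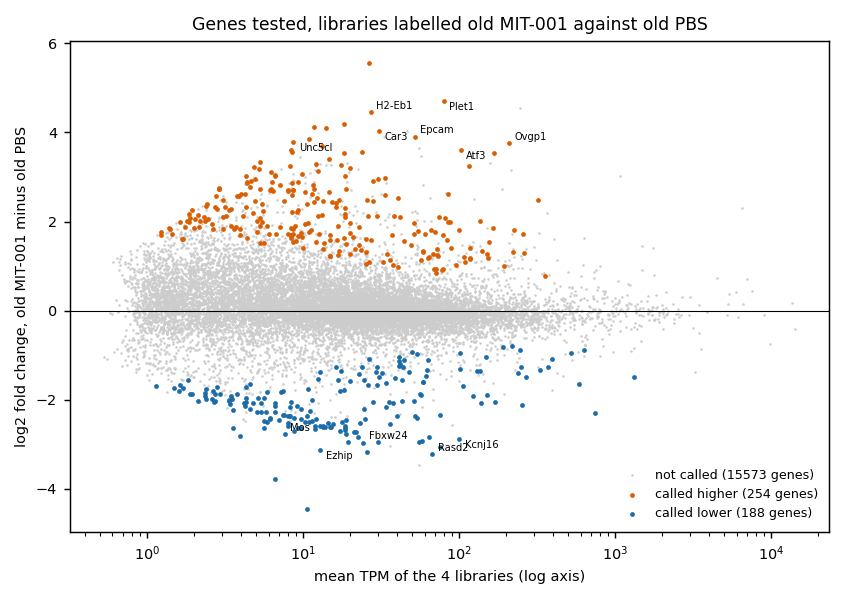
Log2 fold change (old MIT-001 minus old PBS, vertical axis) against mean TPM of the 4 libraries (horizontal log axis), 1 point per gene tested. Genes called higher (254) and lower (188) are coloured, and 12 named genes are labelled.

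These calls rested on all 4 libraries and on the spread of these 2 groups alone. With all 6 libraries in a single fit, where the more variable young PBS pair enters the estimate of spread, limma called 3 genes (0.0187%), all higher, and 0 lower (727 at an unadjusted p below 0.05). The 3 genes were H2-Eb1, Krt18 and Slc15a2. Without replicate 1 labelled old MIT-001, 305 genes passed, and 172 of them were among the 442. Without replicate 2 labelled old MIT-001 only Igkc passed, and without replicate 1 or 2 labelled old PBS none did. Before adjustment those 3 fits gave 1885, 1180 and 1604 genes upwards and 1125, 909 and 819 downwards at a p below 0.05. With no minimum TPM, where 28998 genes were tested, limma called 0 genes (2341 upwards and 1868 downwards at an unadjusted p below 0.05), the 3 genes included. The 3 genes called in both the 4-library and the 6-library fit are therefore described first, and the other calls below are those of the 4-library fit.

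**Figure D2:**
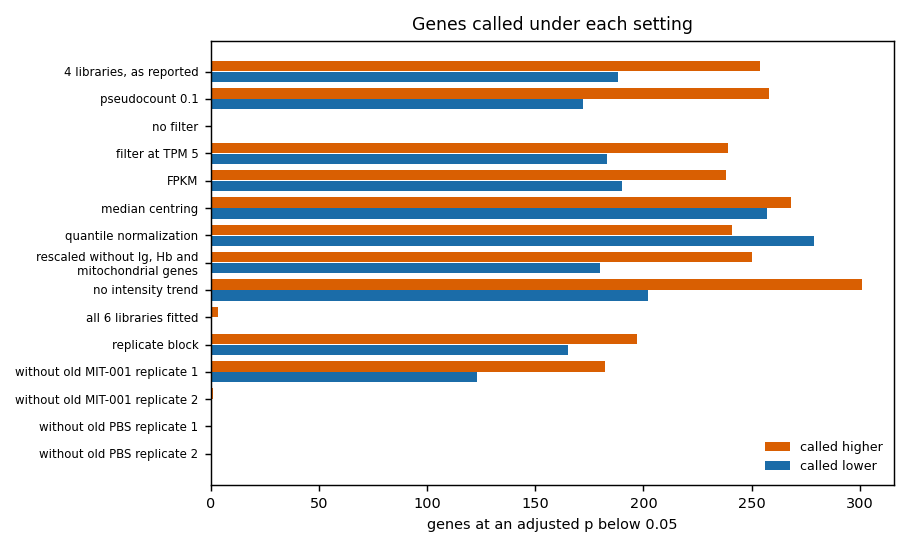
Number of genes called higher and lower (horizontal axis) by limma in the 4-library fit and under each other setting (vertical axis). The count is 442 with all 4 libraries, 3 when all 6 libraries share 1 estimate of spread, 0 with no minimum TPM, and between 0 and 305 when a single library is left out.

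H2-Eb1 encodes a beta chain of MHC class II, the complex that presents peptides to helper T cells. It stood at 51.7 and 54.1 TPM in the old MIT-001 libraries and at 1.39 and 1.54 TPM in the old PBS libraries, with no overlap. Its log2 fold change was 4.45 ± 0.20 (SE), with a limma adjusted p of 0.0236, and 0.0139 with all 6 libraries. Krt18, a keratin of simple epithelia, was at 142 and 149.8 TPM with MIT-001 and at 23.1 and 22.5 TPM with PBS (log2 fold change 2.63 ± 0.13, adjusted p 0.0236 by limma, and 0.0311 with all 6 libraries). Replicates of both genes differed far less than the groups did. Slc15a2, a transporter of small peptides, was at 24.1 and 30.7 TPM against 0.661 and 0.629 TPM (4.10 ± 0.25, adjusted p 0.0276, and 0.0311 with all 6 libraries). It was under 1 TPM in both old PBS libraries, so it entered the test only through the MIT-001 libraries, in which it was high. In the libraries labelled young PBS, H2-Eb1 stood at 83.4 and 104.5 TPM, Krt18 at 49.7 and 48.8 TPM and Slc15a2 at 4.99 and 4.30 TPM. On mm10, H2-Eb1 (Gene ID 14969) lies on chromosome 17 from 34305867 to 34316674 and Krt18 (16668) on chromosome 15 from 102028216 to 102032026, both on the plus strand. The minus-strand gene Slc15a2 (57738) spans 36750161 to 36785158 of chromosome 16.

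Some other members of the MHC class II pathway rose with it. Of 12 listed genes 9 passed the filter, 4 were called higher and 0 lower, and the median log2 fold change was 1.72 against 0.03 over all genes. The alpha and beta chain genes H2-Aa and H2-Ab1 rose by 1.98 ± 0.30 and 1.96 ± 0.29. H2-Aa stood at 160.4 and 117 TPM with MIT-001 and at 25.8 and 44.4 TPM with PBS, and H2-Ab1 at 96.3 and 68.3 TPM against 15.9 and 25.6 TPM. Both genes stood higher in the old PBS libraries than H2-Eb1, which was at 1.39 and 1.54 TPM there. Cd74, the invariant chain that guides class II molecules through the cell, rose by 1.81 ± 0.23, from 79.9 and 120.5 TPM to 375 and 320.6 TPM. The protease gene Ctss, which trims the invariant chain, was at 76.2 and 54.2 TPM against 14.5 and 24.2 TPM and did not pass (1.72 ± 0.30, adjusted p 0.0604 by limma). The peptide-loading genes H2-DMa, H2-DMb1 and H2-DMb2 had log2 fold changes of 0.86, 1.45 and 1.17 and did not pass. H2-Eb2, H2-Oa and Ciita, the class II transactivator, did not reach the filter.

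Class II promoters are known to carry an inverted CCAAT box beside the sites of the RFX and CREB complex. CCAAT was therefore searched on both strands (CCAAT or ATTGG) in RefSeq promoters of assembly GRCm38.p6, windows of 300 bases with 250 before and 50 after the start of transcription. The table held 9 of the 12 listed genes with 10 promoters, and 8 of the 10 held a match, against 37.4% of all 32851 promoters. H2-Ab1, Cd74 and Ciita were not in the table, so H2-Eb1 and H2-Aa were the only called genes searched. The 250 bases before the start are shown for the class II gene with the largest change and for its neighbour H2-Aa, 5′ to 3′ on each gene's strand, with the matches in capitals. H2-Eb1 (chr17:34305617-34305866, plus strand) held matches that begin 59 and 35 bases before the start, and H2-Aa (chr17:34287824-34288073, minus strand) a match that begins 48 bases before it.
H2-Eb1: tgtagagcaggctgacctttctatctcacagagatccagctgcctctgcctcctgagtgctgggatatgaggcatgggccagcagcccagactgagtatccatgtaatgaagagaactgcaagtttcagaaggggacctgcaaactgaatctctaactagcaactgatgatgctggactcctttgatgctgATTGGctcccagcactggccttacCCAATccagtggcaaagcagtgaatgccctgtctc
H2-Aa: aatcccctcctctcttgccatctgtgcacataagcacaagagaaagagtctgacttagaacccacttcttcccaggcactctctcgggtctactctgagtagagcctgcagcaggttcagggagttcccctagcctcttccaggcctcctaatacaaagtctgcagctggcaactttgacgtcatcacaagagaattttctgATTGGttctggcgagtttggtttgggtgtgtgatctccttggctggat
The match of H2-Aa and the first of H2-Eb1 both read ATTGG. A match is a description of these letters and not of binding. CANNTG, the core letters of E-boxes, was in 72.3% of all promoters and in that of Zp3, the single zona pellucida gene in the table.

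Of the 52 gene lists, that of oocyte genes had the most members called lower. All 24 listed genes passed the filter, 19 were called lower and 0 higher, and the median log2 fold change was -2.60. The zona pellucida genes Zp1, Zp2 and Zp3, which encode the egg coat, fell together. Zp2 stood at 16.4 and 8.56 TPM in the old MIT-001 libraries and at 90.1 and 107 TPM in the old PBS libraries (-2.95 ± 0.31, adjusted p 0.0317 by limma). Zp3 stood at 17.0 and 9.30 TPM against 95.4 and 109 TPM (-2.92 ± 0.29), and Zp1 at 5.84 and 4.04 TPM against 37.7 and 37.3 TPM (-2.71 ± 0.23). In each of the 3 the MIT-001 libraries lay far below both PBS libraries, and replicate 2 was the lower of the pair. Gdf9 and Bmp15, growth factors by which the oocyte acts on granulosa cells, had log2 fold changes of -2.84 ± 0.40 and -2.61 ± 0.29. Gdf9 was at 22.8 and 9.35 TPM with MIT-001 and at 116 and 108 TPM with PBS. In bulk ovary, fewer oocytes and less RNA per oocyte cannot be told apart.

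Some maternal-effect genes, whose products act in the egg and early embryo, fell as well. Padi6, needed for the cytoplasmic lattices of the egg, was at 20.7 and 11.5 TPM against 129 and 141 TPM (-3.05 ± 0.29). Nlrp5, Khdc3, Ooep and Tle6, which form the subcortical maternal complex with other proteins, had log2 fold changes of -2.63, -2.67, -2.59 and -1.32. Tle6 had the smallest change of the 19 and stood at 38.6 and 31.9 TPM against 99.2 and 80.3 TPM. Zar1, which binds maternal mRNAs, was at 5.72 and 3.98 TPM against 39.0 and 41.2 TPM (-2.83 ± 0.23). H1f8, the linker histone of oocytes, was at 8.28 and 4.39 TPM against 59.3 and 48.9 TPM (-2.96 ± 0.31), and Mos, the kinase that holds the egg at metaphase, at 1.50 and 0.918 TPM against 13.8 and 14.2 TPM (-2.77 ± 0.26). The 5 members that did not pass were Oosp1, Dazl, Ddx4, Sohlh1 and Figla, with log2 fold changes of -2.39, -1.32, -1.39, -1.11 and -0.75. In the libraries labelled young PBS, Gdf9 was at 73.3 and 9.51 TPM and Zp3 at 69.7 and 6.87 TPM, so the young pair spans most of the range between the groups. Without replicate 1 labelled old MIT-001, 18 oocyte genes passed and the median was -2.94, and without any 1 of the other 3 libraries none passed by limma, with medians from -2.67 to -2.25.

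Some granulosa cell genes fell as well. Of 17 members 6 were called lower and 1 higher, with a median of -1.44. Inhbb, a subunit of activin and inhibin, was at 82.6 and 105 TPM in the old MIT-001 libraries and at 401 and 418 TPM in the old PBS libraries (-2.12 ± 0.16, adjusted p 0.0276 by limma). Fst, the activin-binding follistatin, was at 70.7 and 56.8 TPM against 223 and 251 TPM (-1.88 ± 0.16). Hsd17b1, which makes estradiol, was at 127 and 136 TPM against 336 and 355 TPM (-1.39 ± 0.12). Nap1l5, the BMP antagonist gene Grem1 and the gap junction gene Gja1 also fell (-2.07, -2.20 and -1.48). Gatm, an enzyme of creatine synthesis, rose from 25.6 and 31.2 TPM to 77.9 and 131 TPM (1.80 ± 0.28). The classical markers Amh, Fshr and Cyp19a1 did not pass, with values of -1.33 ± 0.35, -1.44 ± 0.35 and -1.61 ± 0.39. Amh, the hormone of small growing follicles, was at 50.1 and 80.6 TPM against 122 and 213 TPM. Esr2, the estrogen receptor of granulosa cells, was called lower among 8 hormone receptor genes, at 14.3 and 13.3 TPM against 54.2 and 68.6 TPM (-2.06 ± 0.18). Without replicate 1 labelled old MIT-001, 3 granulosa genes were called lower and 1 higher. None passed without replicate 2 or without either PBS library.

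**Figure D3:**
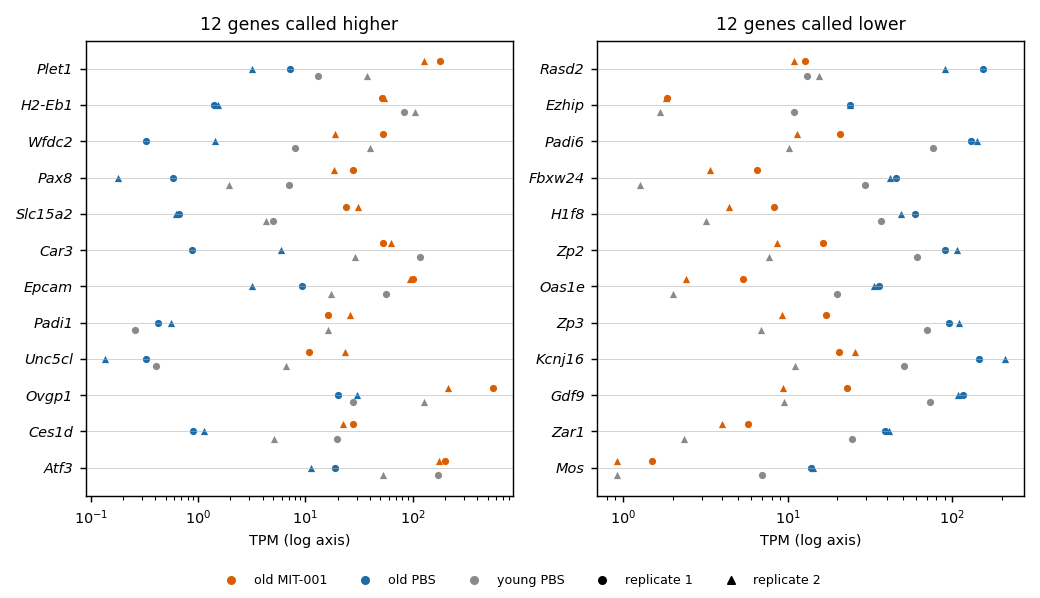
TPM (horizontal log axis) of the 24 genes with the largest called changes, 1 row per gene, with every library as a point (old MIT-001, old PBS and young PBS). The MIT-001 and PBS points of 65 weeks do not overlap in any row, while the young PBS points lie apart from each other for oocyte genes such as Gdf9 (73.3 and 9.51 TPM).

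The lists of theca and interstitial cells and of luteal cells held no called gene. Hsd17b1, which makes estradiol, was called lower on the granulosa cell list. Of 13 theca and interstitial genes limma called 0, with 5 lower and 0 higher at an unadjusted p below 0.05 and a median of -0.21. Cyp11a1, which starts steroid synthesis, was at 11470 and 12800 TPM with MIT-001 and at 17240 and 15030 TPM with PBS (-0.41 ± 0.24). Cyp17a1, which makes androgens, was at 81.9 and 336 TPM against 490.3 and 674 TPM, and its MIT-001 replicates differed several-fold (-1.78 ± 0.66, adjusted p 0.227 by limma). Of 6 luteal genes limma called 0, with 2 higher and 1 lower at an unadjusted p below 0.05. Akr1c18, the progesterone-degrading enzyme of the regressing corpus luteum, was at 7777 and 13330 TPM against 3597 and 1164 TPM and did not pass (2.31 ± 0.59, adjusted p 0.117). Ptgs2, the cyclooxygenase induced at ovulation, passed narrowly at 2.76 and 3.25 TPM against 0.348 and 0.292 TPM (1.60 ± 0.25, adjusted p 0.0499 by limma), the only 1 of 8 ovulatory cumulus genes to do so. It was under 1 TPM in both PBS libraries, and it did not pass with a pseudocount of 0.1 (0.0518), FPKM (0.0540), median centring (0.0520), quantile normalization (0.0785), the replicate block (0.0659), all 6 libraries (0.377) or any 1 of the 4 libraries left out (0.0747 to 0.288).

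Some genes of cell division and of cholesterol synthesis also fell. Of 28 mitotic and replication genes 5 were called lower and 0 higher, with a median of -1.14. Bub1b, a spindle checkpoint kinase, was at 8.75 and 10.4 TPM with MIT-001 and at 28.6 and 32.1 TPM with PBS (-1.57 ± 0.19, adjusted p 0.0348 by limma). Birc5, Ube2c, Aurka and Ccnb1 fell as well, with log2 fold changes of -1.40, -1.60, -1.55 and -1.68. The replication helicase genes Mcm2 and Mcm7 had values of -0.74 and -0.43 and did not pass. Of 23 cholesterol synthesis and uptake genes 2 were called lower, with a median of -0.78. Sqle, the squalene epoxidase, was at 147 and 144 TPM against 342 and 356 TPM (-1.26 ± 0.11), and Hsd17b7, which acts late in the pathway, at 339 and 229 TPM against 806 and 952 TPM (-1.65 ± 0.22). No mitotic gene passed without any 1 of the 4 libraries, while 6 cholesterol genes passed without replicate 1 labelled old MIT-001 and none without another.

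Many epithelial genes rose. Among 12 genes of the surface epithelium and mesothelium 7 were called higher and 0 lower, with a median of 1.98. Besides Krt18, Upk3b, a uroplakin of mesothelia, was at 127 and 135 TPM in the old MIT-001 libraries and at 26.5 and 35.0 TPM in the old PBS libraries (2.07 ± 0.18). Krt7 was at 46.2 and 75.0 TPM against 6.99 and 6.17 TPM (2.98 ± 0.28), and Cdh1, the epithelial cadherin, at 23.2 and 41.9 TPM against 2.29 and 2.36 TPM (3.28 ± 0.33). The keratin genes Krt8 and Krt19 rose by 1.20 and 2.09. The keratin genes and Cdh1 are broader epithelial genes, so their calls do not mark the surface epithelium alone. All 7 had limma adjusted p between 0.0236 and 0.0414. The mesothelial genes Msln, Lrrn4 and Gpm6a had values of 1.42, 2.09 and 1.83 and did not pass.

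Most tested genes on the list of secretory epithelium, the kind that lines the oviduct and uterus, rose too. Broader epithelial genes, such as Epcam, are on the list as well. Of 17 listed genes 16 passed the filter, 12 were called higher and 0 lower, with a median of 2.83. Of the 12, 4 were under 1 TPM in both PBS libraries and entered the test through the MIT-001 libraries alone. Pax8, a transcription factor of these epithelia, was at 27.9 and 18.3 TPM against 0.585 and 0.178 TPM (4.11 ± 0.32, adjusted p 0.0276 by limma). Ovgp1, the oviduct glycoprotein, was at 567 and 215 TPM against 20.3 and 30.5 TPM (3.76 ± 0.48), and Wfdc2, a secreted protease inhibitor, at 52.6 and 19.1 TPM against 0.325 and 1.44 TPM (4.19 ± 0.57). Replicate 1 was the higher of the MIT-001 pair for these 3 genes. In the libraries labelled young PBS, Pax8 was at 7.06 and 1.95 TPM, Ovgp1 at 27.8 and 128.5 TPM and Wfdc2 at 8.06 and 40.2 TPM. The summed level of the list there was 139 and 248 TPM. Epcam, an epithelial adhesion molecule, was at 101 and 94.2 TPM against 9.36 and 3.18 TPM (3.91 ± 0.44). The tight junction genes Cldn3 and Cldn7 both rose by 3.57, with Cldn3 at 37.5 and 51.8 TPM against 2.90 and 2.70 TPM. Plet1, a surface protein of progenitor epithelia, was at 182 and 126 TPM against 7.19 and 3.19 TPM and had the largest change among the genes named by rule (4.70 ± 0.37).

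Genes of ciliated cells, the other cell type of the oviduct lining, did not move alike in the MIT-001 pair. Foxj1, the master regulator of motile cilia, was at 0.867 and 67.0 TPM in the MIT-001 replicates 1 and 2, and at 1.40 and 1.07 TPM with PBS. The mean log2(TPM + 1) of the 20 listed genes was 1.31 and 3.54 with MIT-001 and 1.31 and 1.22 with PBS, so a single library was high. Of 12 genes tested limma called 0 higher (2 at an unadjusted p below 0.05), and 7 higher without replicate 1 labelled old MIT-001. Ccno was called lower (-2.62 ± 0.21) and is also expressed in oocytes. Markers of the secretory list, whose summed level was 918 and 559 TPM with MIT-001 and 58.5 and 58.9 TPM with PBS, were thus high in both MIT-001 libraries and ciliated markers in replicate 2 alone. How much of the epithelial difference came from tissue next to the ovary was not tested. Without replicate 1 labelled old MIT-001, 4 surface and 8 secretory genes passed, and without any 1 of the other 3 libraries none did by limma. The medians without 1 library ranged from 1.76 to 2.04 for the surface list and from 2.75 to 3.20 for the secretory list.

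**Figure D4:**
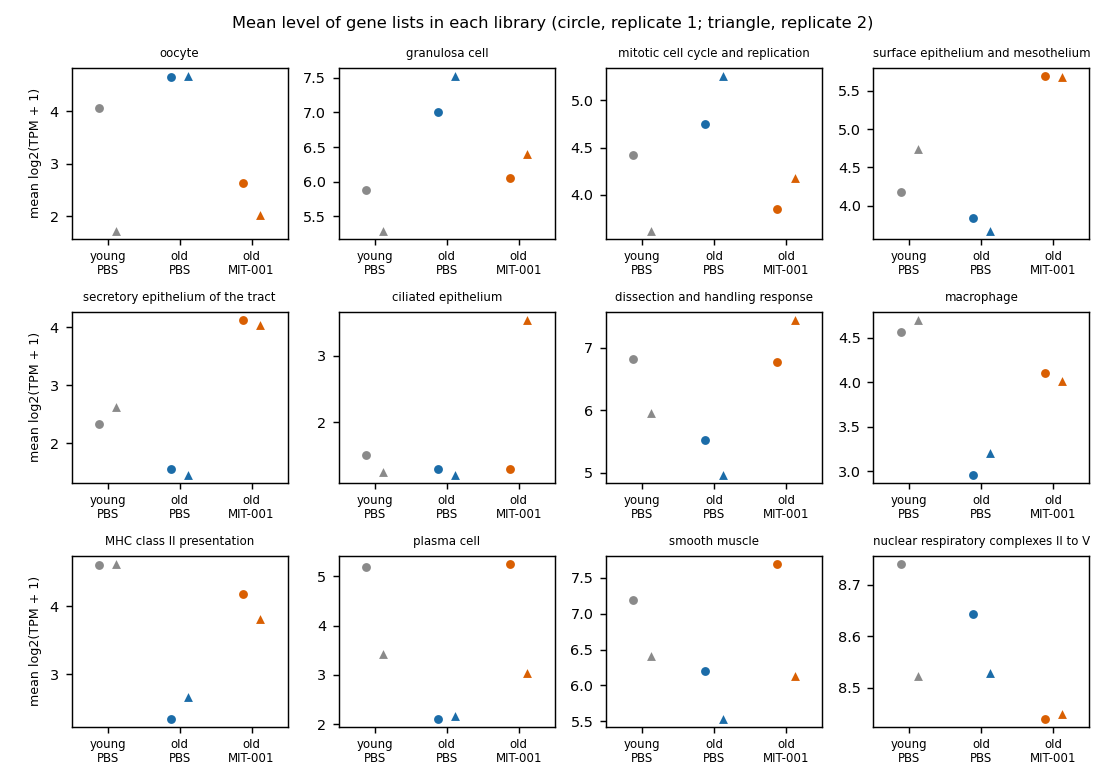
Mean log2(TPM + 1) over the members of selected gene lists (vertical axis) in each of the 6 libraries (points by group). Oocyte genes stand highest in the libraries labelled old PBS (4.66 and 4.68), surface and secretory epithelial lists highest in those labelled old MIT-001, and the ciliated list is high in replicate 2 labelled old MIT-001 alone (3.54).

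Some immune genes beyond MHC class II rose in the libraries labelled old MIT-001. Of 14 macrophage genes tested 4 were called higher and 0 lower, with a median of 1.14. C1qa and C1qc, which start the classical complement pathway and are made by macrophages, were at 111 and 98.4 TPM and at 86.5 and 81.6 TPM with MIT-001. With PBS they were at 36.1 and 42.9 TPM and at 30.3 and 35.6 TPM (1.39 ± 0.16 and 1.33 ± 0.15, adjusted p 0.0322 each by limma). Cd68, a lysosomal protein of macrophages, was at 33.0 and 35.8 TPM against 13.3 and 12.3 TPM (1.36 ± 0.17). Replicates of these genes lay close together in both groups. Lgals3, the only 1 called of 9 genes of lipid-laden and giant macrophages, rose by 1.42 ± 0.16. Of 17 complement genes 5 were called higher, 3 of them the C1q genes that the macrophage list also holds. The others were C3, the central component, at 198 and 222 TPM against 16.7 and 26.6 TPM (3.25 ± 0.24), and the inhibitor Serping1 (1.32 ± 0.15). In the libraries labelled young PBS, C1qa was at 238 and 253 TPM and C3 at 213 and 426 TPM, above or near the MIT-001 values.

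Some secreted signals rose too. Of 21 chemokine genes tested 3 were called higher: the monocyte attractants Ccl7 and Ccl2 and the neutrophil attractant Cxcl1 (3.04 ± 0.26, 2.70 ± 0.36 and 3.02 ± 0.42). Ccl2 was at 17.2 and 13.9 TPM with MIT-001 and at 0.889 and 2.37 TPM with PBS, and Cxcl1 at 20.8 and 46.9 TPM against 2.60 and 3.38 TPM. Ccl7, at 0.766 and 0.503 TPM with PBS, entered the test through the MIT-001 libraries alone. Il6, an inflammatory cytokine of the senescence list, was at 4.65 and 6.99 TPM with MIT-001 and listed at 0 in both PBS libraries (adjusted p 0.0317 by limma). Il6 too entered the test through the MIT-001 libraries alone. The cell cycle inhibitors Cdkn1a and Cdkn2a of that list had values of 2.02 ± 0.43 and 2.27 ± 0.84 and did not pass, with Cdkn2a at 4.69 and 31.1 TPM against 2.48 and 1.24 TPM. Gbp2 was the only 1 called of 16 interferon response genes (1.71 ± 0.26), and H2-Q4 the only 1 of 14 MHC class I genes (0.98 ± 0.15). Of 8 inflammasome genes limma called 0, with 6 higher at an unadjusted p below 0.05 and a median of 1.04.

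Lymphocyte genes were uneven between the MIT-001 replicates. The plasma cell list had a mean log2(TPM + 1) of 5.26 and 3.04 with MIT-001 and of 2.11 and 2.16 with PBS. Igkc, the kappa light chain constant region, was at 887 TPM in replicate 1 and at 73.8 TPM in replicate 2, against 9.50 and 10.6 TPM, and did not pass (4.55 ± 1.12). Igha, the constant region of IgA, did pass, at 14.6 and 22.6 TPM against 1.54 and 2.60 TPM (2.66 ± 0.33). Derl3, also on the plasma cell list, was called lower at 18.2 and 13.3 TPM against 39.9 and 52.0 TPM (-1.49 ± 0.23). Of 6 T and NK cell genes limma called 0, with 3 higher at an unadjusted p below 0.05, and of 3 B cell genes 0, with 0 at an unadjusted p below 0.05. Without 1 library, 0 or 1 of the 9 MHC class II genes, 0 or 2 complement genes, 0 or 3 chemokine genes and 0 macrophage genes passed by limma.

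Immediate early genes, which tissue handling is known to induce within minutes, moved with the same groups. All 19 listed genes were tested, 10 were called higher and 0 lower, and the median was 1.73. Atf3 was at 202 and 177 TPM in the old MIT-001 libraries and at 18.8 and 11.3 TPM in the old PBS libraries (3.60 ± 0.26, adjusted p 0.0276 by limma). Fosb was at 239 and 370.5 TPM against 36.3 and 16.8 TPM (3.54 ± 0.41), and Fos at 414 and 663 TPM against 127 and 68.4 TPM (2.48 ± 0.37). The flow- and stress-responsive factors Klf2, Klf4 and Klf6 rose by 1.73, 2.59 and 1.23. The summed level of the list was 2985 and 4747 TPM with MIT-001 and 1316 and 877 TPM with old PBS, with no member at 0. In the libraries labelled young PBS it was 3171 and 1843 TPM, and Atf3 was at 171 and 53.3 TPM. Replicate 1 labelled young PBS thus had a higher summed level than replicate 1 labelled old MIT-001. The part of handling in the immune and epithelial differences was not tested. Without replicate 1 labelled old MIT-001, 9 of the 19 genes passed, and without any 1 of the other 3 libraries none.

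**Figure D5:**
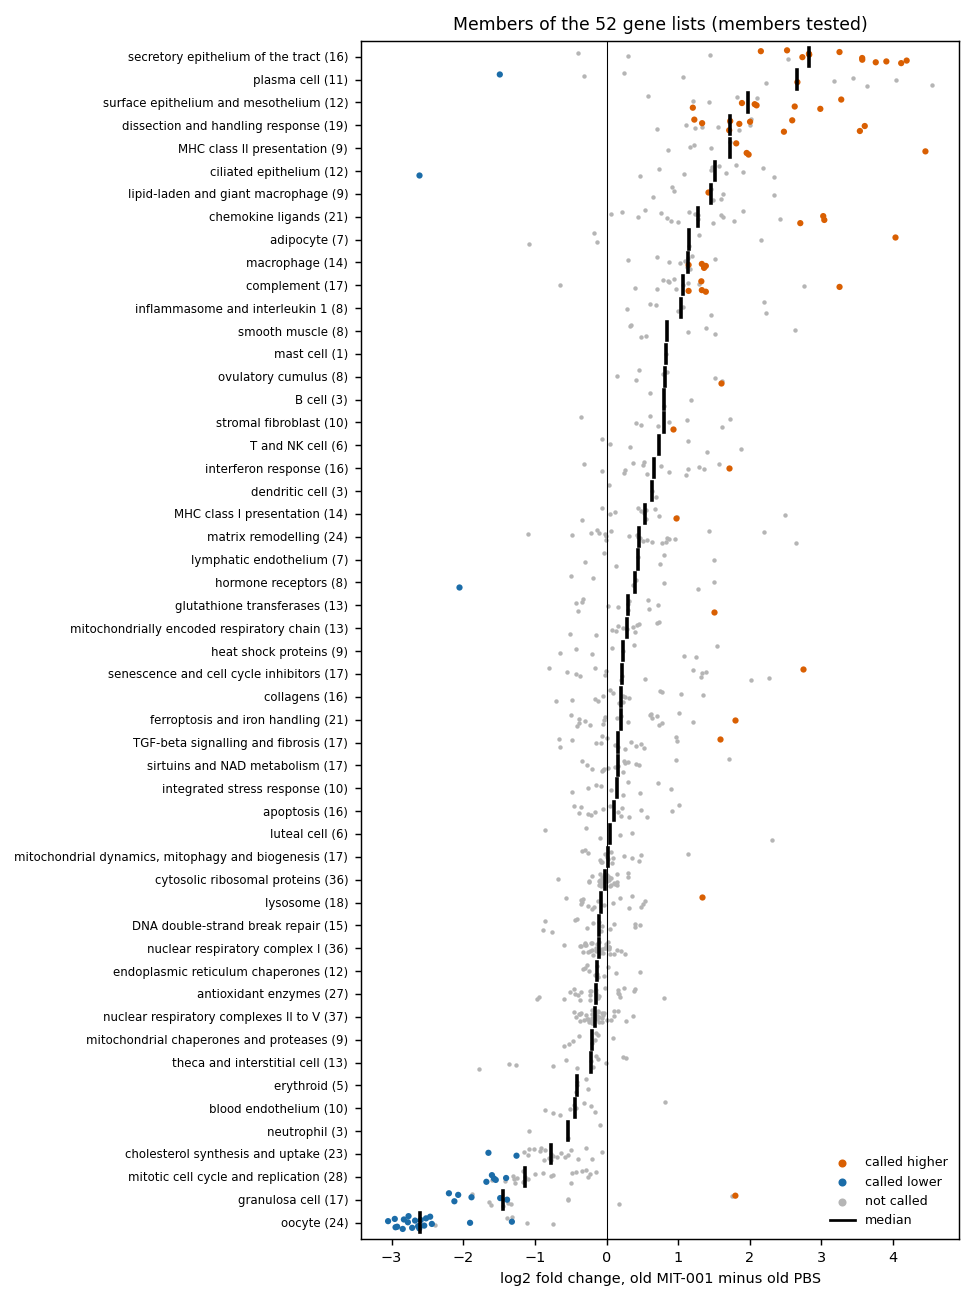
Log2 fold change (old MIT-001 minus old PBS, horizontal axis) of every tested member of the gene lists (rows), with called members coloured and the list's median marked. The medians run from -2.60 for oocyte genes to 2.83 for secretory epithelium. Those of the lists of mitochondria and antioxidant enzymes lie between -0.20 and 0.29, beside a median of 0.03 over all genes.

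Few genes close to the known action of the compound passed. Of 27 antioxidant enzyme genes limma called 0, with 2 higher and 5 lower at an unadjusted p below 0.05 and a median of -0.15. Gpx7, a peroxidase of the endoplasmic reticulum, came nearest to the threshold at 52.3 and 60.0 TPM with MIT-001 and 100.5 and 117 TPM with PBS (-0.94 ± 0.15, adjusted p 0.0507 by limma). Cat, the catalase gene, was at 123 and 110.5 TPM against 184 and 170.5 TPM (-0.60 ± 0.13, adjusted p 0.0873). The superoxide dismutase genes Sod1, Sod2 and Sod3 had values of -0.23, -0.38 and -0.97 and did not pass. Gpx3 was higher without overlap and did not pass, at 2283 and 2168 TPM against 1730 and 938 TPM (0.80 ± 0.31, adjusted p 0.243 by limma). Prdx1 had a value of -0.10 ± 0.16. Of the 27 genes 8 had a value above 0 and 19 below, against 52.7% and 47.3% of all genes. Of 21 ferroptosis and iron genes 1 was called, the iron carrier transferrin: Trf rose from 20.7 and 26.9 TPM to 101 and 70.8 TPM (1.80 ± 0.24, adjusted p 0.0377). Gpx4, which removes lipid peroxides, was at 835 and 750.1 TPM against 1182 and 931 TPM (-0.41 ± 0.17), and Acsl4, which supplies the lipids that peroxidise, at 233 and 177 TPM against 162 and 275 TPM (-0.05 ± 0.29). Neither passed. Gsta3 was the only 1 called of 13 glutathione transferase genes (1.50 ± 0.19).

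Mitochondrial genes gave no call. Of 13 mitochondrially encoded genes of the respiratory chain limma called 0, with 1 higher and 1 lower at an unadjusted p below 0.05. COX1 was at 13210 and 15170 TPM with MIT-001 and at 10770 and 14810 TPM with PBS (0.16 ± 0.27), so the groups overlapped. COX3 was at 10000 and 7463 TPM against 6137 and 6529 TPM, without overlap (0.45 ± 0.23). Of the 13 genes 11 had a value above 0, against 52.7% of all genes. In the higher direction 5 did not overlap, against 26.8% of all genes. The list's median was 0.29 and lay between -0.06 and 0.49 over all settings. The nuclear genes of complex I (36 tested, median -0.11) and of complexes II to V (37 tested, median -0.17) gave 0 calls by limma, with 4 and 5 lower and none higher at an unadjusted p below 0.05. At that p, 8.42% of all genes were lower and 11.7% higher. Of the complex I genes 26 had a log2 fold change below 0 and 14 had groups that did not overlap in the lower direction, and of the genes of complexes II to V 30 and 22 did, against 47.3% and 24.6% of all genes. Genes of mitochondrial dynamics and mitophagy (median 0.01), of mitochondrial chaperones (-0.20) and of sirtuins and NAD metabolism (0.16) gave 0 calls as well, with 1, 0 and 2 higher and 0, 3 and 1 lower at an unadjusted p below 0.05. Of the 9 chaperone and protease genes 8 had a value below 0, and 7 had groups that did not overlap. On simulated data, with changes placed only in genes of higher mean level, the test recovered 8% of genes with a true log2 change of 1 and 50% of those with 2.

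Matrix and stromal genes differed in a few members. Pdgfra, the receptor of stromal fibroblasts, was at 110.4 and 97.1 TPM with MIT-001 and at 51.1 and 56.6 TPM with PBS and was called (0.93 ± 0.14, adjusted p 0.0459 by limma), the only 1 of 10 stromal genes. Ltbp2, a binding protein of the TGF-beta family in elastic fibres, rose from 7.81 and 6.06 TPM to 25.4 and 20.3 TPM (1.59 ± 0.24). Of 16 collagen genes limma called 0, with 4 higher and 2 lower at an unadjusted p below 0.05. Col4a1, a basement membrane collagen, was at 360.3 and 367 TPM against 668 and 526 TPM (-0.70 ± 0.16), and Col1a2, a fibrillar collagen, at 387 and 597 TPM against 456 and 368 TPM, with overlap (0.23 ± 0.25). Of 24 matrix remodelling genes limma called 0, with 8 higher and 2 lower at an unadjusted p below 0.05. Over all genes tested, 11.7% were higher and 8.42% lower at that p. Smooth muscle genes (8 tested, median 0.85) gave 0 calls and 1 higher at an unadjusted p below 0.05, and their level was highest in replicate 1 labelled old MIT-001, with a mean log2(TPM + 1) of 7.70 against 6.13 in replicate 2.

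Among the genes with the largest changes, several belong to none of the lists. Rasd2, a small GTPase, fell most among named genes, at 12.7 and 10.9 TPM with MIT-001 and 154 and 90.8 TPM with PBS (-3.22 ± 0.28). Ezhip, an inhibitor of the Polycomb methyltransferase, was at 1.84 TPM in both MIT-001 libraries and at 23.9 and 23.8 TPM with PBS (-3.13 ± 0.22). Kcnj16, an inward-rectifier potassium channel, was at 20.4 and 25.5 TPM against 145 and 208 TPM (-2.88 ± 0.23). Fbxw24 and Oas1e also fell (-2.96 and -2.94). Replicate 1 labelled young PBS was above replicate 2 for the oocyte gene Gdf9 (73.3 and 9.51 TPM). The same held for Ezhip (10.9 and 1.67 TPM), Kcnj16 (51.0 and 11.1 TPM), Fbxw24 (29.5 and 1.26 TPM) and Oas1e (19.9 and 2.01 TPM). Rasd2 was at 13.0 and 15.6 TPM in that pair. The part of the oocyte difference in these genes was not tested. On the other side, Padi1, a protein arginine deiminase, was at 16.1 and 26.3 TPM against 0.419 and 0.561 TPM (3.86 ± 0.32), while its relative Padi6 was among the genes that fell. Padi1 entered the test through the MIT-001 libraries alone. Ces1d, a lipid esterase, was at 27.8 and 22.6 TPM against 0.900 and 1.15 TPM (3.69 ± 0.25). Car3, the carbonic anhydrase of fat and muscle, was at 53.0 and 63.1 TPM against 0.885 and 5.92 TPM (4.02 ± 0.62, adjusted p 0.0467 by limma), and was the only 1 called of 7 adipocyte genes. Adipoq, a defining adipocyte gene, stood at 1.27 and 2.36 TPM against 0.170 and 0.314 TPM and did not pass. The part of fat tissue in the Car3 difference was not tested.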

How the data were processed

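Per the labels' protocols, TRIzol was used for RNA extraction and a SMARTer mRNA kit for the libraries. The submitters' processing notes name Trimmomatic, HISAT2, StringTie and the build mm10. Tool versions, annotation and strand setting were not given in the sources used here, so reads of paralogs, pseudogenes and antisense partners may be divided between genes. The deposited TPM values sum to a constant total per file, per the file headers and values. The deposited FPKM values, scaled for length and fragments, served as an alternative. The deposited coverage signal (mean depth over a gene, per the file headers) served to estimate depth, since its quotient with FPKM shared a single value in 30.7% to 32.8% of genes above an FPKM of 1. With no read counts, precision comes from the spread of libraries alone.

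Gene IDs were matched to symbols of a RefSeq table of GRCm38.p6. In each file 98 rows had no symbol (0.0145% to 0.0301% of TPM) and were left out. Genes with at least 1 TPM in at least 2 of the 4 libraries were fitted as log2(TPM + 1) with limma 3.58.1 (R 4.3.3), 1 mean per group and an intensity trend, with 2 residual degrees of freedom and 3.116 from the prior. All tests were two-sided, and p-values were Benjamini-Hochberg adjusted over 16015 genes. An exact permutation test of 2 against 2 libraries cannot go below p = 0.333 and was not used. Errors are standard errors of log2 fold changes.

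The gene lists (52 lists, 816 genes, 1 of them not found) and the rule for named genes were chosen with earlier results of these data known. Lists are described by counts and medians, with no set test. Named were the 12 largest called changes in each direction with a mean of at least 5 TPM in the higher group and no overlap (without clone names and pseudogenes, at most 2 per symbol root), up to 4 called members per list with the smallest p, for lists with fewer than 2 calls the 2 most abundant members, and the 3 genes called with 6 libraries. Further list members are given as values and were chosen after these were seen. Of the called genes, 70 that rose and 29 that fell were under 1 TPM in both libraries of the lower group and had to differ to be tested. The procedure was tested on simulated data: at log2 sizes of 1, 2, 3 and 4 it recovered 8%, 50%, 80% and 88% of changed genes, with 2 wrong among 115 calls. Replicate numbers 1 and 2 recur in both groups, but no label says that they mark a shared animal or batch. Alternatives are given in the closing section.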

Additional observations from a re-analysis of the deposited data

How the results depend on the processing

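The count of 442 called genes (254 higher and 188 lower) was within 1.5 times under a pseudocount of 0.1 (430), a filter at 5 TPM (422), FPKM (428), median centring (525), quantile normalization (520), rescaling without immunoglobulin, haemoglobin and mitochondrial genes (430) and no intensity trend (503). Without a filter, 28998 genes were tested and limma called 0 genes, 0 higher and 0 lower, against 2341 higher and 1868 lower at an unadjusted p below 0.05. With all 6 libraries fitted it called 3, 3 higher and 0 lower. With 1 library left out the counts ranged from 0 to 305 genes, from 0 to 182 higher and from 0 to 123 lower, where a group of a single library is assumed to vary like the other group. With the replicate number as a block, 362 genes were called (197 higher and 165 lower). The deviations of same-numbered libraries correlated at 0.197 across genes, but with 2 pairs the libraries share only a number. All 442 genes kept their sign in every setting run, which the absence of overlap in part fixes. Of the list medians, those of luteal, adipocyte, neutrophil, mitochondrially encoded, mitochondrial dynamics, sirtuin, apoptosis, endoplasmic reticulum chaperone and heat shock genes changed sign in at least 1 setting. No list median named in the report with more than 1 called member did. With no read counts, the depth of the libraries could only be estimated (6.34 to 7.14 gigabases), and what it limits was not computed.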

Other observations

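Several families of genes that share a symbol root, chosen after their values were seen and not tested as families, held genes called lower and none called higher. Over all genes tested, 1.17% were called lower. The family genes Nlrp5 and Nlrp14 are also on the oocyte list and were counted there. Whether the other family genes differed apart from the oocyte genes was not tested. Of 23 tested Fbxw genes, which encode F-box proteins with WD repeats, 13 were called lower, and 14 of the 23 lie on chromosome 9 between 109139454 and 109790660 on mm10. Fbxw14 was at 7.23 and 2.85 TPM in the old MIT-001 libraries and at 31.0 and 30.4 TPM in the old PBS libraries (log2 fold change -2.49). The widely expressed members Fbxw2 and Fbxw11 had values of -0.04 and 0.05. Of 13 Nlrp genes 8 were called lower, among them Nlrp9b at 1.52 and 0.945 TPM against 10.9 and 11.0 TPM (-2.43 ± 0.26), while Nlrp10 had a value of 0.91 and did not pass. Of 6 Oas1 genes 4 were called lower (Oas1c, Oas1d, Oas1e and Oas1h), and Oas1a, which interferon induces, had a value of 1.14 and did not pass. Of 12 Pramel genes 5, of 4 Obox genes 3, of 5 Tcl1 genes 3 and of 3 Khdc1 genes 2 were called lower. Where members are near-identical copies, reads may be divided between them, so values of such single members are uncertain.

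Of 14 tested Cldn genes with a single number in the name, which encode claudins of tight junctions, 4 were called higher, 10 did not pass and 2 of those had a log2 fold change below 0. Over all genes tested, 1.59% were called higher. The 4 were Cldn3, Cldn7, Cldn10 and Cldn22. Cldn10 was at 30.8 and 22.2 TPM with MIT-001 and at 3.16 and 4.99 TPM with PBS (2.44 ± 0.30, adjusted p 0.0341 by limma), and Cldn22 at 6.83 and 10.1 TPM against 0.319 and 0.190 TPM (2.90 ± 0.29), so that it entered the test through the MIT-001 libraries alone. The endothelial claudin Cldn5 was at 66.8 and 64.8 TPM against 79.9 and 67.0 TPM and did not pass.

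Some large values lay outside the rule for named genes. BC048679, left out as a clone name, had the largest called change, at 50.4 and 55.7 TPM with MIT-001 and 0.101 and 0.196 TPM with PBS (5.56 ± 0.23). BC048679 entered the test through the MIT-001 libraries alone, so it had to differ to be tested. H2-Ea, annotated as a transcribed pseudogene beside the class II genes, was at 2.31 TPM in replicate 1 and 43.5 TPM in replicate 2 labelled old MIT-001, against 0.565 and 0.699 TPM. Genes that differed most between the MIT-001 replicates were higher in replicate 2 for cilia (Tmem212 at 1.03 and 83.2 TPM, Dynlrb2 at 0.927 and 68.2 TPM) and for the secreted proteins Hp (10.9 and 212 TPM) and Lcn2 (14.3 and 200.1 TPM). Immunoglobulin genes such as Ighg2b (180.2 and 2.51 TPM) were higher in replicate 1.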
